A study of Mus musculus with 11 samples.

Results

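The 30 genes described here are a set of glycolytic enzymes, glucose and lactate carriers, hypoxia-inducible factors (HIFs) and HIF target genes, chosen by symbol. All 30 were found among the 54513 genes of the count table, and all 30 were among the 19267 genes that passed a filter on low counts. Messenger RNA was sequenced from colonic intestinal epithelial cells of wild-type (WT) mice and of double-knockout (DKO) mice lacking both miR-181a1-b1 and miR-181a2-b2. The 4 groups were baseline WT (n = 2 libraries), baseline DKO (n = 3), WT after dextran sulfate sodium (DSS, n = 3) and DKO after DSS (n = 3). DSS is a polymer that damages the colonic epithelium when given to mice. Treated mice received 2% DSS for 7 days, followed by 2 days of recovery, and lymphocytes were depleted with 40% Percoll, a density medium. The same protocol text stands beside every sample, those labelled baseline included, and baseline was taken as labelled, on which each comparison of DSS with baseline rests. The labels name no Cre driver or promoter, so the deletion is not tied to a cell type. The labels do not state the age, sex or strain of the mice, nor whether each library came from 1 mouse, and p-values therefore measure the spread between these libraries.

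Glycolysis splits glucose into pyruvate, which is either reduced to lactate by lactate dehydrogenase or passed to the mitochondria through the pyruvate dehydrogenase complex. HIF-1α and HIF-2α, encoded by Hif1a and Epas1, are hydroxylated by prolyl hydroxylases such as Egln1 and Egln3 when oxygen is present and are then degraded. When oxygen is scarce they accumulate, and between them they raise transcription of most glycolytic genes and of genes for pH control, blood vessel growth and mitophagy. The surface of the colon lies next to an oxygen-poor lumen, and its epithelium is known for a steep oxygen gradient. HIF-α protein is set largely by degradation, which a messenger RNA level does not show.

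Total counts were 41631951 to 52761900 per library, and the 30 genes held 0.604% to 0.958% of them. Summed over 12 epithelial markers, the level was at least 15988 CPM, the count scaled to library size by TMM, in every library. The 4 miR-181a and miR-181b hairpins had 0 counts in all 11 libraries, as mRNA libraries do not capture them. Their host transcript Mir181a-1hg had 4 to 8 counts in baseline WT, 14 to 19 in baseline DKO, 10 to 15 in WT after DSS and 21 to 31 in DKO after DSS, so neither row checks the genotype labels. A ribosomal RNA gene, Rn18s-rs5, held 23.0% and 8.46% of the counts of baseline DKO replicates 1 and 2 and at most 1.59% elsewhere. Xist was at 6.75 to 14.5 CPM in baseline libraries and at 633 to 906 CPM after DSS, and Ddx3y, a Y-linked gene, at 42.6 to 54.9 and at 0.162 to 0.895 CPM. The sex that these transcripts mark and DSS treatment therefore cannot be told apart, and this touches every comparison of DSS with baseline below, including that of the X-linked Pgk1.

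Promoter sequences of 28 of the 30 genes were found in RefSeq (GRCm38.p6), each running from 250 bases before to 50 bases after an annotated start. The core of the HIF binding element was searched as ACGTG or GCGTG on either strand, and CACGTG, which reads alike on both strands, counts as 2 matches. Of the 42 promoters of these genes, 34 (81%) held at least 1 match, against 43.8% of all 32851 promoters in the table, and ACGTG alone was in 54.8% against 19.6%. The promoters of these genes were also richer in G and C, at 61.2% against 53.8%, and the part of base composition in the difference was not tested. Overlapping promoters of 1 gene were counted separately. By gene, 26 of 28 held the core, against 12628 of 27025, whether or not a gene was expressed here. The set was chosen to hold HIF targets, so this excess is no independent support. A match is a run of letters and not evidence of binding. The promoters of 3 genes that were higher in DKO than in WT cells after DSS, and of Pgk1, which rose from baseline to DSS in both genotypes, are shown with matches in capitals.
Bnip3, chr7:138909457-138909756, minus strand, 5 matches: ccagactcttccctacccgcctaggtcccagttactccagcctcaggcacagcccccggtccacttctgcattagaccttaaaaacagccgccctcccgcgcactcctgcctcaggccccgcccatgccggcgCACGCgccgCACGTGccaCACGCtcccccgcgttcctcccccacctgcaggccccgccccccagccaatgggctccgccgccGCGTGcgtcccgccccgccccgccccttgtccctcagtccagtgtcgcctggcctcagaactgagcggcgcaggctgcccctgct
Slc2a1, chr4:119108495-119108794, plus strand, 2 matches: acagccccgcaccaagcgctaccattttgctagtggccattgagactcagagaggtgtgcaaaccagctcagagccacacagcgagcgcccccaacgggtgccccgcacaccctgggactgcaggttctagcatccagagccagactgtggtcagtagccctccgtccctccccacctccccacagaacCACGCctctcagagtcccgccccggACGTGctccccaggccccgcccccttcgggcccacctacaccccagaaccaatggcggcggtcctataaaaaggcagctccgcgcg
Car9, chr4:43506776-43507075, plus strand, 1 match: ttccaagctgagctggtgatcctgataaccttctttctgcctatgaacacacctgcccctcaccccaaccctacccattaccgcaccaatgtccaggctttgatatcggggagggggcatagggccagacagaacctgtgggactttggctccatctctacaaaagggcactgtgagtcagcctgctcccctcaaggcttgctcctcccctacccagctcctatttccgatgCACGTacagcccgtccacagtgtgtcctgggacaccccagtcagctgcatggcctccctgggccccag
Pgk1, chrX:106186850-106187149, plus strand, 2 matches: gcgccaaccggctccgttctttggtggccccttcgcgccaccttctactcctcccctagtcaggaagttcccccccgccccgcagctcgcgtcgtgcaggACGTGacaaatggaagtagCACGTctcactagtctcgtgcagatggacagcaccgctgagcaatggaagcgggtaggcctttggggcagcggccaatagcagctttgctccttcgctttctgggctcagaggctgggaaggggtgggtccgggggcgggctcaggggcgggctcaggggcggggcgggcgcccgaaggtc
Most Bnip3 matches lay near one another, around a CACGTG, and the single Car9 match lay close to the start. Ndrg1 and Epas1 had no entry in the promoter table.

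The microRNAs deleted in DKO mice share their seed, bases 2 to 8, printed in capitals in the RefSeq mature sequences.
miR-181a-5p: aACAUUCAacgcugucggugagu
miR-181b-5p: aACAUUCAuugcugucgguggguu
Seed matches TGAATGT (7mer-m8) and GAATGTA (7mer-A1) were searched in the longest 3′ UTR of each gene in GENCODE M21. They were found in 6 of the 30 genes (20%), against 22.2% of 19432 genes, with median UTR lengths of 1081.5 and 1050 bases, so the share was near the background. The matched letters are in capitals in the windows of Ndrg1, which was higher in DKO than in WT cells after DSS, and Egln1, which did not pass that test.
Ndrg1, chr15:66929855-66929861, minus strand: aacttgatagcTGAATGTctcttaactgg
Egln1, chr8:124909732-124909738, minus strand: acccaggcacgTGAATGTggtatgtggtt
The other 4 genes with a match were Pfkl, Pfkp, Pkm and Adm. None of these 4 passed the test of DKO against WT after DSS.

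Levels can be compared between genes only per length, here as CPM per kilobase of exon. The length joins all annotated exons of a gene, such as 4133 bases for Gapdh and 13401 for Pfkp. It can exceed that of the transcript in these cells, so the order of genes depends on the annotation. In baseline WT cells the most abundant members were Aldoa (341 CPM per kb), which cleaves fructose bisphosphate, Ldha (287), the lactate dehydrogenase subunit that favours lactate, and Gapdh (196). Pkm (150), which makes pyruvate, and Tpi1 (141), which interconverts the triose phosphates, followed. The lowest were Slc16a3 (0.579), a lactate exporter, and Pfkfb3 (0.792), which makes the allosteric activator of phosphofructokinase. The paralog of Ldha with the opposite preference, Ldhb, was at 3.51 CPM per kb. Hif1a and Epas1 were at 17.4 and 25.4 CPM per kb in these cells. That gap came largely from replicate 1, as Hif1a was at 84.8 and 120 CPM and Epas1 at 167 and 117 CPM in replicates 1 and 2. In baseline DKO the means were 16.8 and 20.9 CPM per kb. After DSS Hif1a was above Epas1, at 16.6 against 11.7 in WT and 17.3 against 12.8 in DKO. The 17 annotated copies of member genes that were counted separately had at most 60 counts in any library.

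**Figure D1:**
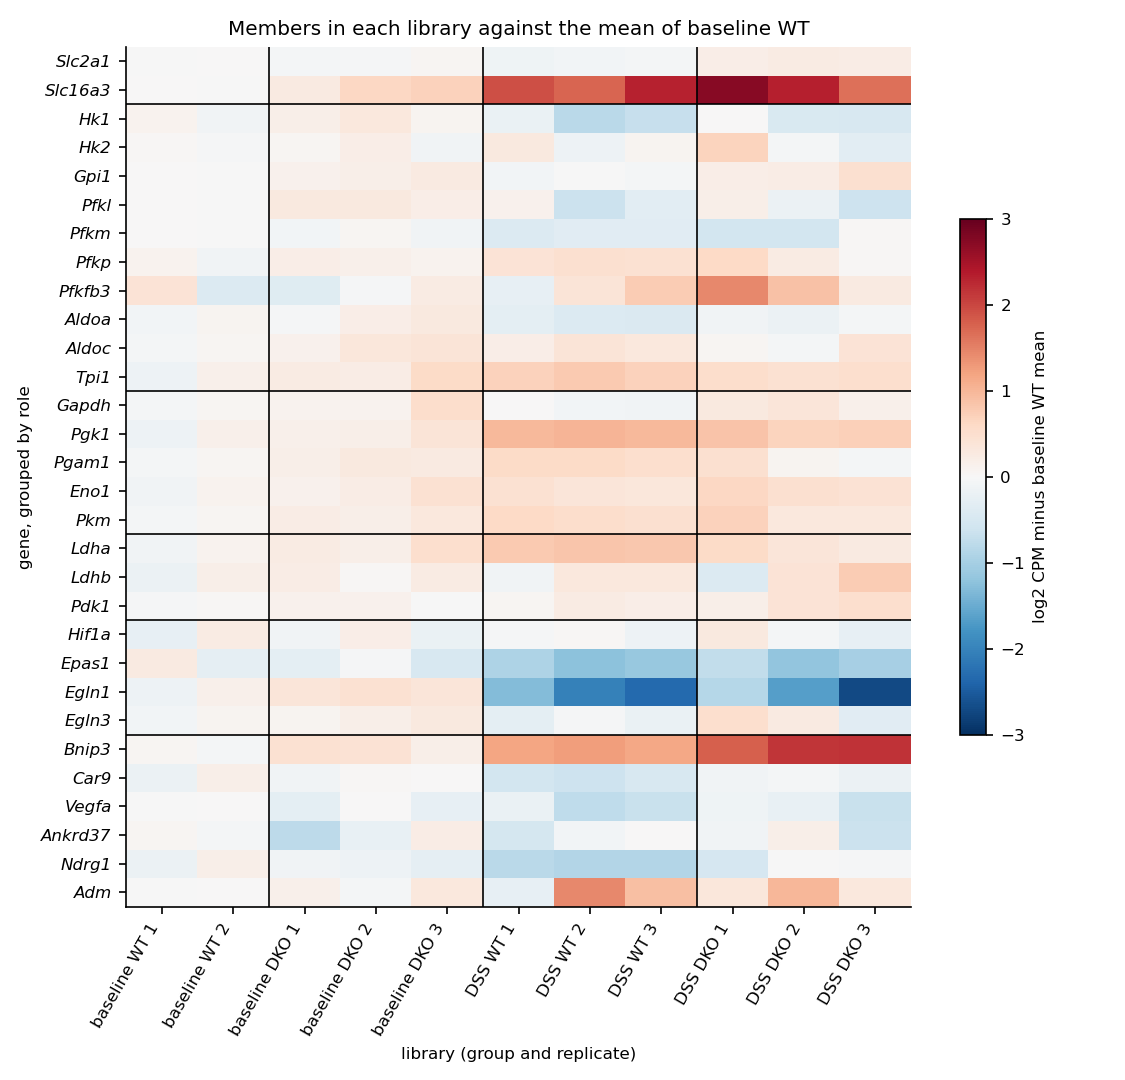
Log2 CPM of each of the 30 genes (rows, grouped by role) in each of the 11 libraries (columns), minus the mean of the 2 baseline WT libraries; red is above and blue below that mean. Slc16a3 and Bnip3 are above it and Egln1 and Epas1 below it in all 6 DSS libraries.

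After DSS, 4 of the 30 genes were higher in DKO than in WT cells and 0 were lower, by edgeR's quasi-likelihood test at a Benjamini-Hochberg adjusted p under 0.05. They were Bnip3, which directs mitochondria to autophagy, Ndrg1, a stress-induced gene of differentiation, Car9, a membrane carbonic anhydrase that acidifies the cell surface, and Slc2a1, the glucose carrier GLUT1. Over all genes tested, 5.26% were called higher, 5.98% lower and 11.2% in either direction, against 13.3% of the 30. The median log2 fold change of the 30 was 0.14, beside 0.03 for all genes, and 26 genes passed in neither direction. DESeq2 called 6 of the 30, 5 higher and 1 lower, by adding Gpi1 (higher, adjusted p = 0.0125) and Ldha (lower, adjusted p = 0.0255), where it called 16.2% of all genes.

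Bnip3 was at 7.41, 7.77 and 7.34 CPM in the WT libraries after DSS and at 11.4, 14.5 and 14.8 CPM in the DKO libraries. All DKO libraries were above all WT libraries, with a log2 fold change of 0.85 ± 0.16 (SE; adjusted p = 0.00787), or 1.81-fold. Ndrg1 was at 120, 115 and 115 CPM in WT and at 149, 212 and 208 CPM in DKO. Its groups did not overlap, replicate 1 of DKO was the lowest of the 3, and the log2 fold change was 0.70 ± 0.14 (adjusted p = 0.0107). Car9 was at 41.5, 39.8 and 43.9 CPM in WT and at 56.3, 58.9 and 54.3 CPM in DKO, again without overlap, with a log2 fold change of 0.44 ± 0.11 (adjusted p = 0.0292). The levels of Slc2a1 lay closest together, at 143, 146 and 151 CPM in WT and 179, 183 and 182 CPM in DKO, and its log2 fold change was 0.30 ± 0.09 (adjusted p = 0.0429). The Bnip3 call held in 17 of 18 other settings, failing when a change of at least 1.5-fold was required. The calls of Ndrg1, Car9 and Slc2a1 held in 14, 12 and 5 of the 18. Without WT replicate 2, WT replicate 3 or DKO replicate 2 only Bnip3 remained called, where 4.48%, 4.52% and 3.6% of all genes were. Without WT replicate 1 Bnip3 and Ndrg1 remained called (10.2% of all genes). Without DKO replicate 1 there were 7 calls (16%), 5 higher and 2 lower. The 2 lower were Pgam1 (−0.54, adjusted p = 0.00607) and Ldha (−0.48, adjusted p = 0.033).

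**Figure D2:**
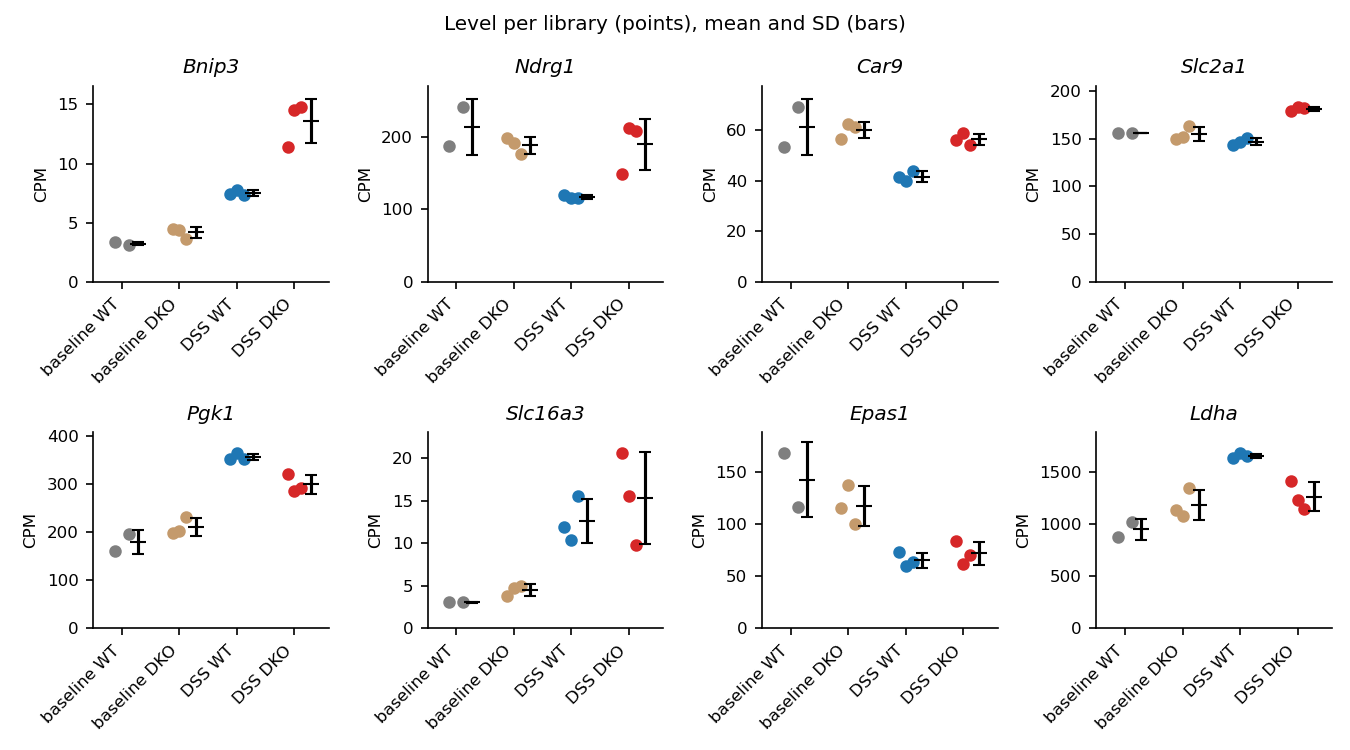
CPM of 8 genes in each library (points) by group, with group mean and SD (bars), n = 2 for baseline WT and 3 elsewhere. The top row holds the genes higher in DKO than in WT after DSS, whose DSS groups do not overlap, and the bottom row the 4 genes with the lowest p for DSS in WT that are not in the top row.

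In 11 of the 30 genes (36.7%) the DKO and WT groups did not overlap after DSS, beside 31.8% of all genes tested. The other 7 were glycolytic and did not pass the adjusted test in edgeR. Gpi1, which isomerizes glucose 6-phosphate, was at 653 to 682 CPM in WT and 791 to 952 CPM in DKO, with a log2 fold change of 0.35 ± 0.11 (adjusted p = 0.0507). Gapdh and Aldoa had values of 0.32 and 0.27 with adjusted p of 0.132 and 0.161. Ldha had the opposite sign, at 1630 to 1676 CPM in WT and 1146 to 1417 CPM in DKO, a log2 fold change of −0.39 ± 0.13 (adjusted p = 0.0694), and it was called lower in 4 of the 18 other settings. Pgam1, Pgk1 and Tpi1 had values of −0.37, −0.25 and −0.23, with adjusted p of 0.094, 0.17 and 0.254. Genes with positive and with negative values were thus interspersed along the pathway.

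The remaining steps showed no call between the genotypes after DSS. In the 10 genes of glucose phosphorylation and upper glycolysis the log2 fold changes ran from −0.23 to 0.58 (adjusted p from 0.0507 to 0.922), and the highest, Pfkfb3, had a 95% interval of −0.16 to 1.33. The 2 hexokinases that start glycolysis, Hk1 and Hk2, had values of 0.25 and 0.08. Among the phosphofructokinase subunits, Pfkl, Pfkm and Pfkp had 0.08, 0.03 and −0.13. In the last steps, Eno1 and Pkm had 0.13 and −0.08, and Pdk1, a kinase that inhibits pyruvate dehydrogenase, had 0.20. Hif1a itself was at 90.7 to 104 CPM in WT and 84.5 to 124 CPM in DKO, a log2 fold change of 0.06 with a 95% interval of −0.31 to 0.43, and Epas1 had 0.14 (−0.23 to 0.51). The hydroxylases Egln1 and Egln3 had 0.28 (−0.62 to 1.17) and 0.36 (−0.03 to 0.75). Of the other HIF targets, Vegfa, the angiogenic factor, had 0.21, Ankrd37 0.04 and Adm, a vasodilator peptide, −0.27.

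**Figure D3:**
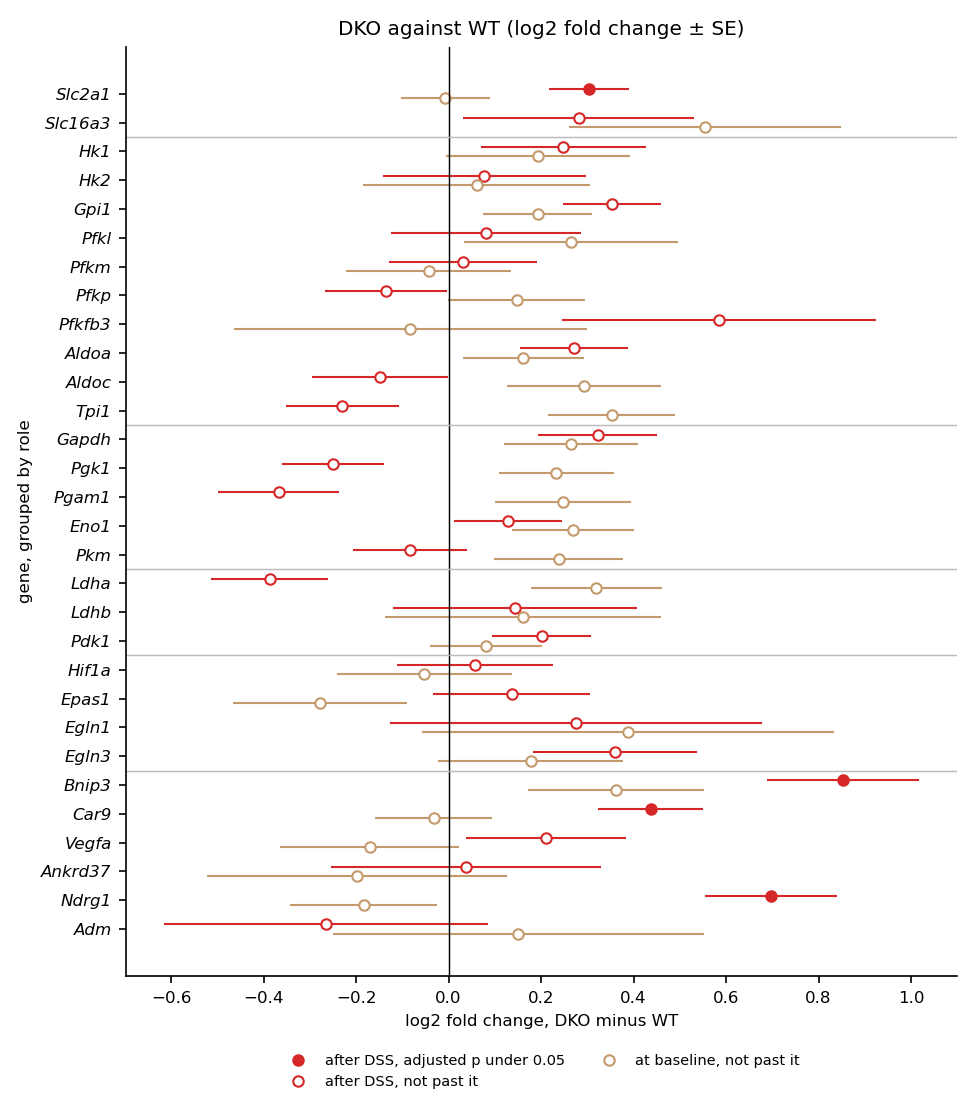
Log2 fold change of DKO against WT (x axis, bars are SE) for the 30 genes after DSS (red) and at baseline (brown), filled where the adjusted p was under 0.05. The filled points are Bnip3, Ndrg1, Car9 and Slc2a1 after DSS, and 0 points are filled at baseline.

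Markers of other cells moved with genotype after DSS. Summed over 14 neutrophil markers, the level was 73.9 to 79.4 CPM in WT and 185 to 269 CPM in DKO, and 5 of the 14 genes were called higher. Over 14 T and natural killer cell markers it was 146 to 162 CPM in WT and 40.7 to 79.5 CPM in DKO, and 11 of the 14 were called lower. Macrophage and dendritic cell markers summed to 117 to 139 CPM and 82.0 to 119 CPM, and 1 of the 12 was called lower. Of 10 fibroblast markers 3 were called higher and 1 lower, with sums of 343 to 394 CPM in WT and 268 to 427 CPM in DKO. Epithelial markers summed to 16967 to 18570 CPM in WT and 16343 to 17142 CPM in DKO, and 0 of the 12 were called. Of all genes 5.26% were called higher and 5.98% lower. No marker of these lists was at 0 in all libraries, and their part in the results was not tested. In bulk cells, fewer cells of a type and less RNA per cell cannot be told apart.

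At baseline, 0 of the 30 genes were called between DKO and WT by edgeR, where 0.0260% of all genes were, and DESeq2 also called 0. Tpi1 and Ldha had unadjusted p under 0.05, which is 2 of 30 beside 3.90% of all genes. Their log2 fold changes were 0.35 ± 0.14 and 0.32 ± 0.14, with adjusted p of 1. The value was positive for 21 of the 30, with a median of 0.17, against 0.01 for all genes. Groups did not overlap in 13 genes (43.3%), beside 20.2% of all genes. Bnip3 was at 3.35 and 3.13 CPM in WT and 4.46, 4.41 and 3.65 CPM in DKO (0.36 ± 0.19), Slc2a1 at 156 and 156 against 150, 152 and 164 CPM (−0.01 ± 0.10), and Ndrg1 at 187 and 241 against 199, 191 and 176 CPM (−0.18 ± 0.16). The 5 genes of lower glycolysis, Gapdh, Pgk1, Pgam1, Eno1 and Pkm, all lay higher in every DKO library than in the 2 WT libraries, with log2 fold changes of 0.23 to 0.27. Such a shift was not particular to these genes. Of 12 epithelial markers 11 had positive values (median 0.22), 7 did not overlap (58.3%) and 0 were called. They summed to 15988 to 17789 CPM in WT and 19093 to 21860 CPM in DKO. Macrophage and dendritic cell markers summed to 55.6 to 56.7 and 60.4 to 74.4 CPM, while sums of neutrophil, T and natural killer cell, and fibroblast markers overlapped. The part of these changes was not tested.

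With DSS, 14 of the 30 genes changed in WT cells (46.7%, beside 33.4% of all genes), 9 higher and 5 lower, where 16.9% and 16.5% of all genes were. Of the 5 genes of lower glycolysis 4 rose, as did the lactate exporter Slc16a3 and Ldha. Slc16a3 was at 3.11 and 3.04 CPM at baseline and 11.9, 10.4 and 15.5 CPM after DSS, a log2 fold change of 2.03 ± 0.31 (adjusted p = 0.000815) or 4.10-fold. Pgk1, which makes the first ATP of the pathway, was at 161 and 196 CPM and at 351, 363 and 351 CPM, 0.99 ± 0.13 (adjusted p = 0.000377). Ldha rose from 880 and 1022 CPM to 1630, 1676 and 1650 CPM, 0.80 ± 0.14 (adjusted p = 0.0021). Bnip3 (1.21), Tpi1 (0.72), Pgam1 (0.55), Pkm (0.53), Pfkp (0.44) and Eno1 (0.38) also rose, and each group of libraries lay apart. The calls of Eno1, Pfkp and Aldoa were lost in 10, 8 and 8 other settings. Without baseline WT replicate 1 there were 9 calls, where 13.5% of all genes were called. Those of Pgam1, Pkm, Eno1, Pfkp and Aldoa were lost, so that Pgk1 was the 1 gene of lower glycolysis still called. Markers of other cells moved with DSS in these libraries: 11 of 14 T and natural killer cell markers were called higher, with sums of 31.3 to 56.0 CPM at baseline and 146 to 162 CPM after DSS, as were 5 of 12 macrophage and dendritic cell markers (55.6 to 56.7 and 117 to 139 CPM) and 4 of 14 neutrophil markers (53.8 to 60.4 and 73.9 to 79.4 CPM). Of 12 epithelial markers 1 was higher and 3 lower, and of 10 fibroblast markers 2 were higher and 0 lower. The part of these changes in the results was not tested.

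Of the 4 genes for HIF-α subunits and hydroxylases 2 fell in WT cells, and so did 2 of the 6 other HIF targets. Egln1 was at 25.3 and 31.7 CPM at baseline and 11.4, 6.88 and 5.63 CPM after DSS, −1.84 ± 0.44 (adjusted p = 0.0117). Epas1 was at 167 and 117 CPM and at 73.3, 59.3 and 63.1 CPM, −1.12 ± 0.19 (adjusted p = 0.00139). Ndrg1 fell from 187 and 241 CPM to 120, 115 and 115 CPM (−0.87 ± 0.16), Car9 from 53.5 and 69.3 to 41.5, 39.8 and 43.9 CPM (−0.56 ± 0.13) and Aldoa by 0.38 on the log2 scale. With replicate 1 as the only baseline WT library, the values of Egln1, Car9 and Aldoa were weaker, at −1.65, −0.34 and −0.27. The size of these falls thus depends on which baseline WT library is used. Hif1a had −0.07, with a 95% interval of −0.48 to 0.34. Among HIF targets, Bnip3 and Slc16a3 rose while Car9 and Ndrg1 fell in the same libraries.

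In DKO cells 5 of the 30 changed with DSS (16.7%, beside 23.6% of all genes), 3 higher and 2 lower, where 12.6% and 11% of all genes were. Bnip3 rose from 4.46, 4.41 and 3.65 CPM to 11.4, 14.5 and 14.8 CPM, 1.70 ± 0.17 (adjusted p = 8.07e-05), Slc16a3 from 3.75, 4.77 and 5.01 to 20.5, 15.6 and 9.82 CPM, 1.76 ± 0.26 (adjusted p = 0.000881), and Pgk1 by 0.51 ± 0.11. Egln1 (−1.95 ± 0.41) and Epas1 (−0.71 ± 0.17) fell. All 5 were also called in the same direction in WT, where 14 were called. No matching share over all genes is given here, so the overlap is not read as particular to these genes. The 2 comparisons share no library, but they come from 1 fit and both carry the difference in Xist and Ddx3y. Ldha, Tpi1, Pgam1, Ndrg1 and Car9, which changed in WT, had 0.09, 0.14, −0.06, 0.01 and −0.09 in DKO, while Aldoa, Eno1, Pkm and Pfkp, the other 4 called in WT and not in DKO, had −0.27, 0.24, 0.21 and 0.16, with the sign they had in WT. The Epas1 call in DKO was lost in 3 other settings. These were a 1.5-fold minimum and leaving out baseline DKO replicate 2 (edgeR adjusted p = 0.0573) or DSS DKO replicate 2 (edgeR adjusted p = 0.0552). Without DSS DKO replicate 1 there were 8 calls, where 30.2% of all genes were called. Beside these changes 9 of 14 neutrophil markers were called higher, with sums of 43.8 to 71.2 CPM at baseline and 185 to 269 CPM after DSS, as were 6 of 12 macrophage and dendritic cell markers (60.4 to 74.4 and 82.0 to 119 CPM) and 2 of 14 T and natural killer cell markers (35.7 to 46.8 and 40.7 to 79.5 CPM). Of 12 epithelial markers 4 were lower, and of 10 fibroblast markers 2 were higher and 0 lower. The part of these changes was not tested here either.

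**Figure D4:**
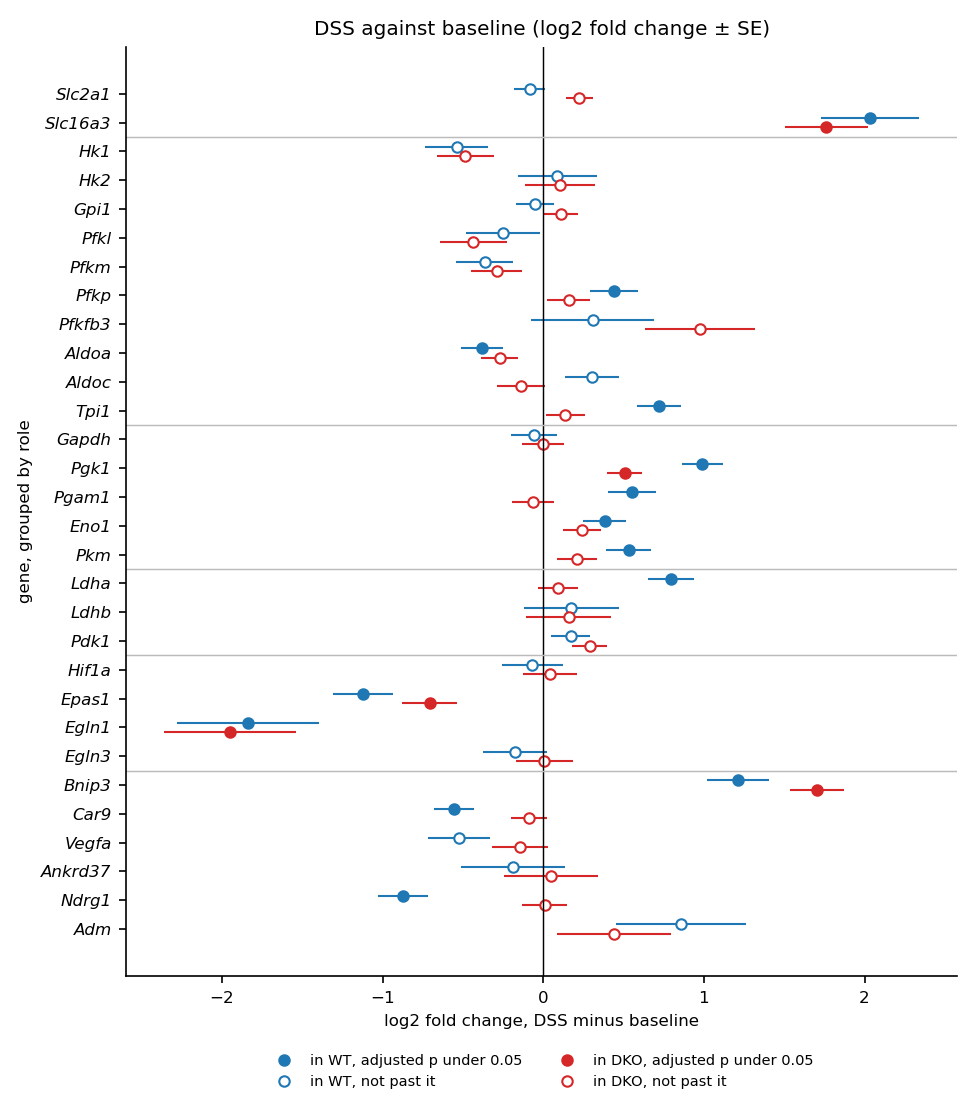
Log2 fold change of DSS against baseline (x axis, bars are SE) for the 30 genes in WT (blue) and DKO (red), filled where the adjusted p was under 0.05. Of the 14 filled points in WT and the 5 in DKO, Slc16a3, Bnip3, Pgk1, Egln1 and Epas1 are filled in both.

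The test of whether the DSS response differed between genotypes called 0 of the 30 in edgeR, beside 1.57% of all genes. DESeq2 called 3, which were Ndrg1, Ldha and Tpi1, where it called 7.14% of all genes. At an unadjusted p under 0.05 there were 7, beside 18.9% of all genes. Ndrg1 was nearest, with a difference of 0.88 ± 0.21 (adjusted p = 0.0577), since it fell in WT and had a value near 0 in DKO. Ldha had −0.71 ± 0.19 (adjusted p = 0.0795), and Pgam1, Tpi1 and Pgk1 had −0.61, −0.58 and −0.48 (adjusted p of 0.123, 0.119 and 0.147). Car9 and Slc2a1 had 0.47 and 0.31. A smaller rise of these glycolytic genes in DKO cells was thus not called by edgeR. The 2 libraries of baseline WT enter each of these differences. Without DSS DKO replicate 1 there were 3 calls, where 7.82% of all genes were called.

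Members with a paralog were compared through the log2 ratio of CPM within a library, which cancels differences in depth. The ratio of Hk2 to Hk1 was −0.36 and −0.24 in baseline WT and 0.19, 0.36 and 0.46 in WT after DSS, and in DKO it moved from −0.42, −0.42 and −0.47 to 0.35, 0.10 and −0.13. The ratio of Pfkp to Pfkl was −0.25 and −0.44 in baseline WT and −0.05, 0.78 and 0.43 after DSS. The ratio of Egln3 to Egln1 had group means of 0.53 and 0.31 at baseline in WT and DKO and of 2.25 and 2.42 after DSS, since Egln1 fell and Egln3 had values of −0.18 and 0.01. Between DKO and WT after DSS none of 6 ratios passed a two-sided exact permutation test, in which 3 libraries against 3 cannot give a p under 0.1. The ratio of Aldoc to Aldoa was the one that reached 0.1 (difference −0.43), with an adjusted p of 0.6.

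**Figure D5:**
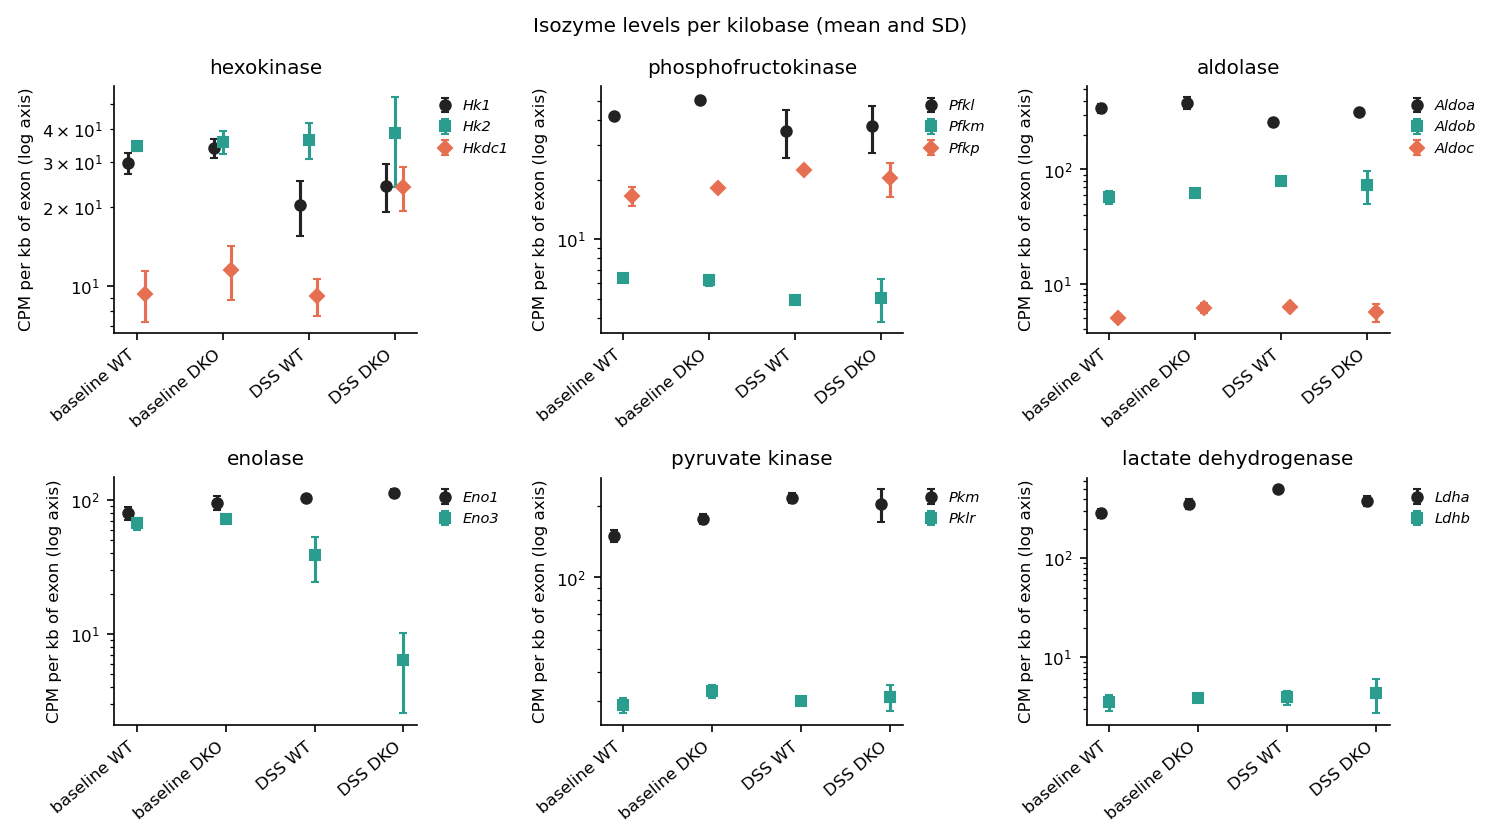
CPM per kilobase of exon (log axis) of the isozymes of 6 glycolytic steps by group, as mean and SD over libraries (n = 2 for baseline WT and 3 elsewhere). The length joins all annotated exons, so the distance between isozymes depends on the annotation. Hkdc1 and Eno3, which are not among the 30 genes, differ most of the plotted genes between WT and DKO after DSS, at 9.15 against 24.0 and 38.6 against 6.40.

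Other genes of the same pathways were read from 4 lists. Of 29 other glycolysis and gluconeogenesis genes, 2 had higher and 2 had lower levels in DKO than in WT after DSS, 13.8% beside 11.2% of all genes and so near the background. Hkdc1, a hexokinase-like gene, was at 47.0 CPM in WT and 123 CPM in DKO (1.39 ± 0.20, adjusted p = 0.00219), and Pck1, which opens gluconeogenesis, had 0.54 ± 0.15. Eno3, the muscle-type enolase, was at 67.1 and 11.1 CPM (−2.59 ± 0.43, adjusted p = 0.00691), and Pgm2 had −0.52 ± 0.11. Of 20 tested genes of pyruvate and lactate fate, 4 had higher and 3 had lower levels in DKO cells (35%, beside 11.2% of all genes). Pdk4, a kinase that inhibits pyruvate dehydrogenase, was at 16.6, 27.7 and 25.4 CPM in WT and at 35.1, 143 and 139 CPM in DKO (2.18 ± 0.47, adjusted p = 0.019). Gpt, an alanine transaminase, had 1.23 ± 0.23, Pdk2 0.56 ± 0.14, the malic enzyme Me2 −0.64 ± 0.11, and Pdp2 and Dld −0.87 and −0.37. The median of this list was −0.16, beside 0.03 for all genes.

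Of 17 other genes of the oxygen-sensing machinery 1, Hif3a, was higher in DKO after DSS, at 3.53, 3.11 and 2.24 CPM in WT and 7.64, 18.03 and 11.5 CPM in DKO (2.06 ± 0.34, adjusted p = 0.00406). That is 5.88% of the list, below the 11.2% of all genes. HIF-3α lacks part of the activating region of the other α subunits. Of 38 other HIF targets 6 were higher and 4 lower (15.8% and 10.5%, beside 5.26% and 5.98% of all genes). Angptl4, an inhibitor of lipoprotein lipase, was at 2.31, 5.01 and 4.95 CPM in WT and 16.2, 76.9 and 98.1 CPM in DKO (3.96 ± 0.64), Edn1, the vasoconstrictor endothelin 1, at 22.5, 40.0 and 33.4 against 77.9, 135 and 156 CPM (1.94 ± 0.30), and Loxl2 had 2.80 ± 0.52. P4ha1, a collagen hydroxylase, was lower at 43.2, 37.3 and 42.3 against 22.8, 21.7 and 21.2 CPM (−0.90 ± 0.12), as were Tfrc, the transferrin receptor (−0.84 ± 0.12), and Nt5e (−0.88 ± 0.17). In the test of the genotype difference in the DSS response, Edn1 (2.41), P4ha1 (−1.07), Tfrc (−1.01) and Hif3a (2.47) were called, beside 1.57% of all genes.

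With DSS the lists held genes that changed in both directions. In WT 12 of the 38 other HIF targets rose and 5 fell (44.7% in either direction, beside 33.4% of all genes), with Tfrc (1.48 ± 0.14) and P4ha1 (1.45 ± 0.14) lowest in p among those that rose and the mucin gene Muc3 (−1.53 ± 0.20) among those that fell. In DKO 15 rose and 6 fell (55.3%, beside 23.6%), among them Angptl4 (5.11 ± 0.69), Edn1 (2.59 ± 0.31) and Muc3 (−1.35 ± 0.18). In WT 9 of the 20 pyruvate genes rose, with Pdhb (0.77 ± 0.12) and Dld (0.69 ± 0.12) of the pyruvate dehydrogenase complex lowest in p, and 3 fell, Pdk2 and Gpt2 (−1.55 and −0.82) among them, 60% in all beside 33.4%. The coactivators Crebbp (−1.55 ± 0.29) and Ep300 (−1.36 ± 0.35) fell in WT, and Crebbp also fell in DKO (−0.95 ± 0.27, adjusted p = 0.0261), where Ep300 had −0.80 ± 0.32 (adjusted p = 0.0959). In DKO Hkdc1 (1.06 ± 0.20) and Pfkfb2 (0.93 ± 0.14) rose and Eno3 (−3.50 ± 0.44) fell.

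Within the DKO group after DSS the libraries were unequal. Replicate 1 was the highest of the 3 for 17 of the 30 genes (56.7%, beside 41.5% of all genes tested), and replicate 3 was the lowest for 17 (56.7%, beside 38.4%). Slc16a3 ran from 9.82 CPM in replicate 3 to 20.5 CPM in replicate 1, Egln1 from 4.33 to 15.6 CPM, and Hk2 from 164 to 328 CPM. Bnip3 and Ndrg1 were lowest in replicate 1, as were Angptl4, Edn1 and Pdk4.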

How the data were processed

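Counts per gene are raw and unnormalized, as the deposited table's whole numbers and unequal totals show. Per the submitters' processing notes STAR and mm10 were used; which version, read counter, annotation or strand setting was used is not given in the sources used here, and reads of overlapping genes cannot be told apart. The members and gene lists were chosen with earlier results of these data known, so no pattern seen before is independent support.

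The analysis used edgeR 4.0.16 in R 4.3.3: filterByExpr (minimum count 10), TMM scaling, and a quasi-likelihood fit (robust) of all 11 libraries, with 1 mean for each group (common biological coefficient of variation 0.234), with two-sided F-tests and Benjamini-Hochberg adjustment over 19267 genes. The SE is the log2 fold change over the square root of F. CPM are TMM-scaled. Replicates differed beyond sampling noise (chi-square per degree of freedom 15.9 to 897). Positions are from GENCODE M21 on GRCm38. Named genes are the 30 members and, per list, up to 3 higher and 3 lower by lowest p for genotype after DSS, and up to 2 each for DSS. Alternatives were DESeq2 1.42.0 (size factors; Wald test), no filter, only the groups compared, a replicate block, no Rn18s-rs5, a 1.5-fold minimum (glmTreat), and leaving out each library.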

Additional observations from a re-analysis of the deposited data

How the results depend on the processing

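Of the alternatives tried, none turned the direction of a gene that was called. Requiring at least 1.5-fold left 0 of the 30 genes for DKO against WT after DSS, 4 for DSS in WT and 3 for DSS in DKO. Of all genes it left 1.6%, 8.56% and 5.71%. Without a filter on low counts there were 8 calls for DSS in DKO and 2 in the interaction, beside 14.6% and 3.92% of all genes. With DESeq2 there were 8 and 3, beside 29% and 7.14%. Leaving out 1 library gave 1 to 7 calls for DKO against WT after DSS, 9 to 17 for DSS in WT, 4 to 8 for DSS in DKO and 0 to 3 in the interaction. The share of all genes called moved too, from 11.2% to between 3.6% and 16% for DKO against WT after DSS. It lay between 13.5% and 38.3% for DSS in WT, 13.5% and 30.2% for DSS in DKO, and 0.00976% and 7.82% in the interaction. Same-numbered libraries of WT and DKO after DSS had correlations of 0.302, 0.0194 and 0.201 in their deviations, and differently numbered ones −0.303 to 0.157. These values do not settle whether replicate numbers pair the libraries. A replicate block gave 3 calls after DSS (Slc2a1 lost, adjusted p = 0.0608), 14 for DSS in WT, 6 for DSS in DKO and 0 in the interaction. The shares of all genes called with it were 11.6%, 31.5%, 27.5% and 1.65%. Scaling moved the median of all genes by at most 0.0175. The precision of 2 or 3 libraries a group limits every comparison, and genes such as Ankrd37 and Adm had few counts. Their lowest counts in a library were 65 and 100, and those of Slc16a3 and Bnip3, which were called, were 121 and 144.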
